A study of Mus musculus and Homo sapiens with 10 samples.

Results

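H3K9ac, the acetylation of lysine 9 of histone H3, was mapped by chromatin immunoprecipitation and sequencing (ChIP-seq) in NIH3T3 cells, an immortalized mouse fibroblast line. The subject here is the set of H3K9ac peaks that stood apart from both H3K4me3 and RNA polymerase II, features of active genes. A peak was a member if no H3K4me3 peak and no RNA polymerase II (Pol II) peak of the same cells covered at least 1 bp of it. By this rule 3073 of the 28308 H3K9ac peaks (10.9%, interval 10.5 to 11.2) were members. They were chosen by the positions of the H3K9ac, H3K4me3 and Pol II peaks, so their lack of H3K4me3 and Pol II is a definition. The lists of H4 hyperacetylation, H3K9me3, UBF and Pol I peaks had no part in the choice. The other 25235 H3K9ac peaks comprised 561 with Pol II and no H3K4me3, 10125 with H3K4me3 and no Pol II, and 14549 with both.

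All 7 lists used came from exponentially growing, untreated NIH3T3 cells in serum-containing medium, and the wider series also holds human mammary epithelial cells, which were not used here. The lists give only where each called peak starts and ends on the mouse genome (build mm9), with no height or score, and their sequencing depth is unknown. There was 1 list per antibody, without a replicate. No test between lists was therefore possible. The main shares are given with their exact (Clopper-Pearson) 95% binomial intervals over peaks, which cover counting error only. The lists held 41519 peaks for H4 hyperacetylation, 30239 for Pol II, 27982 for H3K4me3, 23795 for H3K9me3, 3704 for UBF and 1409 for Pol I.

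Acetylation of H3 lysine 9 is placed by acetyltransferases such as GCN5 and PCAF and removed by histone deacetylases. It is known from active promoters and from active enhancers, the distal elements that act on promoters over a distance. H3K4me3, trimethylation of lysine 4, is placed around transcription start sites by the SET1 and MLL complexes. The Pol II antibody recognises the phosphorylated C-terminal repeat of the enzyme. H4 hyperacetylation marks open chromatin and is bound by bromodomain proteins. H3K9me3 lies on the same lysine as H3K9ac, is bound by the heterochromatin protein HP1 and is known from silent chromatin. The upstream binding factor (UBF) and RNA polymerase I (Pol I) are known for their place on the ribosomal RNA genes. H3K4me1 and H3K27ac, the usual marks of enhancers, were not analysed here.

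Members were narrow. Their median width was 903 bp, with quartiles of 693 and 1182 bp and a full range of 237 to 4004 bp. H3K9ac peaks with Pol II alone had a median of 1117 bp, those with H3K4me3 alone 1125 bp and those with both 2289 bp. The members thus made up 10.9% of the H3K9ac peaks and 5.52% of the bases they cover, 3.01 Mb of 54.5 Mb. A wide peak has more room to meet a peak of any other list, so width is a part of what the rule selected. The shares that met each other list are therefore also given within bands of width.

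H4 hyperacetylation was the usual companion of these peaks. It covered at least 1 bp of 2270 members (73.9%, 72.3 to 75.4), against 23260 of the other H3K9ac peaks (92.2%, 91.8 to 92.5). Over all H3K9ac peaks the share was 90.2%. By class of H3K9ac peak it was 73.9% in members, 78.1% (74.4 to 81.4) with Pol II alone, 84.3% (83.5 to 85.0) with H3K4me3 alone and 98.2% (98.0 to 98.4) with both. The intervals of members and of peaks with Pol II alone overlap, and those of the other classes lie higher. Where the 2 acetylation marks met, they met over most of the peak. In members with H4 hyperacetylation a median of 97.0% of the H3K9ac peak was covered (quartiles 87.1% and 100%), and 873 of the 2270 were covered in full (38.5%). In the other H3K9ac peaks the median covered was 92.1%, and 21.4% were covered in full. The similar classes stood closer to members, at 95.6% and 33.1% with Pol II alone and 94.7% and 29.4% with H3K4me3 alone. Peaks with both stood at 90.3% and 16.2%. Coverage was not compared within bands of width, and a narrow peak is more easily covered in full.

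**Figure D1:**
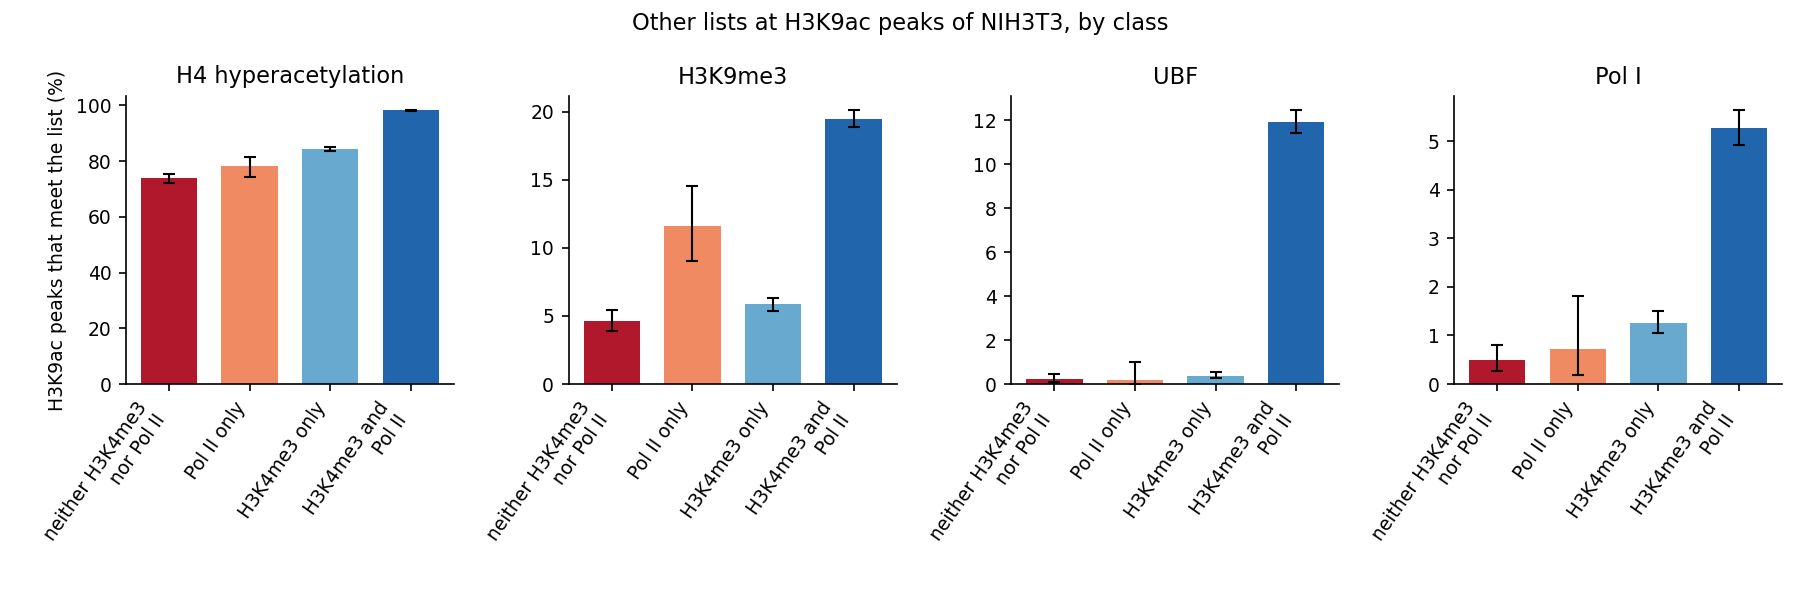
Share of H3K9ac peaks (%, vertical axes, each panel with its own scale) that met a peak of H4 hyperacetylation, H3K9me3, UBF or Pol I, for the 4 classes of H3K9ac peak, with members at the left. Bars are shares and whiskers exact 95% binomial intervals over peaks; members stood at 73.9%, 4.62%, 0.228% and 0.488%, and peaks with both H3K4me3 and Pol II at 98.2%, 19.5%, 11.9% and 5.27%.

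Most H4 hyperacetylation peaks at members met no H3K4me3 or Pol II peak themselves. Of the 2325 H4 hyperacetylation peaks that lay over a member, 2110 (90.8%) met neither H3K4me3 nor Pol II, and their median width was 1102 bp. Seen from the members, 2051 of the 2270 (90.4%) had only such H4 hyperacetylation peaks, and lay a median of 5303 bp from H3K4me3. In the other 219 (9.65%, 8.46 to 10.9) an H4 hyperacetylation peak ran on from the member into an H3K4me3 or Pol II peak, and these lay a median of 333 bp from H3K4me3. Of the 25295 H4 hyperacetylation peaks that lay over other H3K9ac peaks and no member, 97.2% met H3K4me3 and 61.0% met Pol II, with a median width of 1611 bp. Of the 13899 over no H3K9ac peak, 75.2% met neither list, 17.6% met H3K4me3 and 9.46% met Pol II, with a median width of 804 bp. The shares at members and at other H3K9ac peaks follow in part from the classes, which were cut by H3K4me3 and Pol II. Those over no H3K9ac peak were not cut in this way. An H4 hyperacetylation peak over a member lies, at least in part, where the rule allows neither list. The distances of 333 and 5303 bp also follow in part from how those members were split. An H4 hyperacetylation peak that joins a member to an H3K4me3 peak spans the gap between them.

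The gap in H4 hyperacetylation was uneven across widths. In the narrowest band, up to 693 bp, it was present at 62.8% of members (59.3 to 66.2) and 65.9% of the other H3K9ac peaks (63.6 to 68.1), with overlapping intervals. In the band from 694 to 903 bp the shares were 72.8% (69.5 to 75.9) and 75.3% (73.5 to 77.1), again overlapping. They separated from 904 to 1182 bp, at 76.7% of members (73.5 to 79.6) and 85.7% of the others (84.4 to 86.9). From 1183 bp up they were 83.3% (80.4 to 85.8) and 98.0% (97.7 to 98.2), but this band has no upper end and the other peaks in it are wider. Weighting the other H3K9ac peaks to the members' 4 width bands gave them a share of 81.2%, so that members minus others came to -7.32 percentage points, against -18.3 unweighted and -6.39 with 10 bands. Set against the most similar classes with the 4 bands, the difference was -0.502 points to peaks with Pol II alone and -4.94 points to peaks with H3K4me3 alone.

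**Figure D2:**
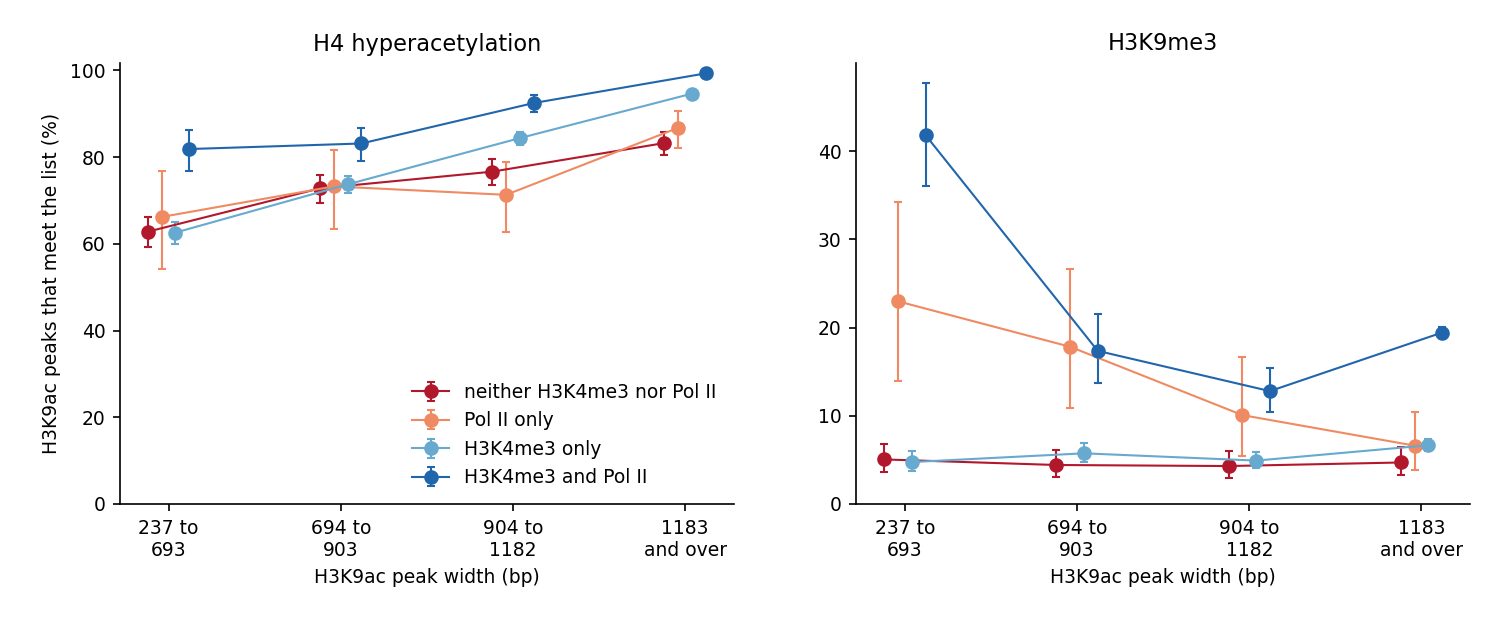
Share of H3K9ac peaks (%, vertical axes) that met H4 hyperacetylation (left) or H3K9me3 (right) in 4 bands of H3K9ac peak width (bp, horizontal axes; the last band is open), with 1 line per class and exact 95% binomial intervals over peaks. For H4 hyperacetylation members rise in each band, to 83.3%, and the classes meet most often in the widest band; for H3K9me3 members stay between 4.30% and 5.05%, while the narrowest peaks with both H3K4me3 and Pol II stand at 41.8%.

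The remaining 803 members had no H4 hyperacetylation peak, and 790 of them met none of the 4 other lists. They were narrower, with a median of 798 bp, against 944 bp for members with H4 hyperacetylation. Their distance to H3K4me3 was alike, a median of 4129 bp without H4 hyperacetylation and 4352 bp with it. An H4 hyperacetylation peak lay within 500 bp of 154 of the 803 (19.2%) and within 5000 bp of 499 (62.1%). Peaks in none of the 4 lists made up 25.7% of members and 7.58% of the other H3K9ac peaks. Peaks with H4 hyperacetylation as their only other list made up 69.1% and 71.5%. These shares were not weighted for width, and the others are a mix of classes. H4 hyperacetylation was missing from 123 of 561 peaks with Pol II alone, 1594 of 10125 with H3K4me3 alone and 258 of 14549 with both. The 5 widest members in no other list ran from 2073 to 2864 bp. The widest of them, on chromosome 4 from 127044282 to 127047146, lay 67 bp from an H4 hyperacetylation peak and 100 bp from an H3K4me3 peak. The fifth, on chromosome 19 from 56584057 to 56586130, was 2073 bp wide and lay 14439 bp from H4 hyperacetylation and 23076 bp from H3K4me3.

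H3K9me3, the methylated form of the same lysine, was uncommon at members. It met 142 members (4.62%, 3.91 to 5.42), against 3493 of the other H3K9ac peaks (13.8%, 13.4 to 14.3), and the share over all H3K9ac peaks was 12.8%. Peaks with H3K4me3 alone stood close to members, at 5.85% (5.40 to 6.32), with intervals that just overlap. Peaks with Pol II alone stood at 11.6% (9.06 to 14.5) and peaks with both at 19.5% (18.9 to 20.1). The gap was also present at like widths. In the 3 narrower bands members stood at 5.05%, 4.42% and 4.30%, and the other H3K9ac peaks at 11.6%, 8.25% and 6.95%. Weighting the others to the members' widths left 10.7%, and peaks with Pol II alone at 14.4%. Peaks with H3K4me3 alone came to 5.52% under that weighting.

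The members with H3K9me3 nearly all had H4 hyperacetylation too, and this pairing was not particular to members. Among the other H3K9ac peaks, 2721 met H4 hyperacetylation and H3K9me3 but neither UBF nor Pol I, and 42 met H3K9me3 alone. The same counts for members were 130 and 9. H3K9me3 met 133 of the 2270 members with H4 hyperacetylation (5.86%, 4.93 to 6.91) and 9 of the 803 without it (1.12%, 0.514 to 2.12). The order was the same in each of the 4 width bands. In the narrowest the shares were 7.01% with and 1.74% without, and in the widest 5.49% with and 0.781% without. From the narrowest band up, the shares without rested on only 5, 2, 1 and 1 members. In the widest band the intervals overlap, at 3.86 to 7.56 with and 0.0198 to 4.28 without. The 3 marks shared the same bases in 129 of the 133, over a median of 644 bp. A lysine residue carries either acetyl or methyl groups, so such peaks overlap in position and not on 1 residue. How the overlap arises was not tested. Members with H3K9me3 had a median width of 897 bp and lay a median of 2893.5 bp from H3K4me3, and those without had 903 bp and 4353 bp. The widest member with H3K9me3, on chromosome 15 from 77745845 to 77748651, was 2806 bp wide, with 74.0% of it under H3K9me3 and 83.6% under H4 hyperacetylation. The next widest, on chromosome 15 from 99418425 to 99421106, had 21.7% under H3K9me3. The third, on chromosome 11 from 101448701 to 101451252, had 3.80%. That on chromosome 2 from 155698169 to 155700656 had 27.5%, and the fifth, on chromosome 15 from 25848792 to 25851162, had 96.8%. All 5 had at least 83.6% of their width under H4 hyperacetylation, while the part under H3K9me3 ran from 3.80% to 96.8%.

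UBF was almost absent from these peaks. It met 7 members (0.228%, 0.0916 to 0.469), against 1778 of the other H3K9ac peaks (7.05%, 6.73 to 7.37), with 6.31% over all H3K9ac peaks. The share was 0.178% with Pol II alone (1 of 561 peaks), 0.385% (0.274 to 0.526) with H3K4me3 alone and 11.9% (11.4 to 12.5) with both. The intervals of members, of peaks with Pol II alone and of peaks with H3K4me3 alone overlap. In the 3 narrower width bands UBF met 0.259%, 0.390% and 0.261% of members and 1.20%, 0.482% and 0.704% of the other H3K9ac peaks, with overlapping intervals in each band. In the open band from 1183 bp it met none of 765 members (0 to 0.481) and 9.53% of the others (9.11 to 9.97). Weighting the others to the members' widths gave them 2.97% with 4 bands and 2.04% with 10, so that members minus others came to -2.74 and -1.81 percentage points, against -6.82 unweighted. All 7 had H4 hyperacetylation, 1 had H3K9me3 and none had Pol I. The widest, on chromosome 2 from 148200767 to 148201878, was 1111 bp wide, with 331 bp under UBF, 2525 bp from H3K4me3. The next, on chromosome 17 from 81353827 to 81354851, lay entirely inside a UBF peak and 107748 bp from the nearest H3K4me3 peak. The others lay 1680 to 19540 bp away. The third, on chromosome 13 from 109503671 to 109504559, had 756 of its 888 bp under UBF, and that on chromosome 16 from 43574213 to 43575086, had 442 of 873 bp. The fifth, on chromosome 6 from 52118502 to 52119206, carried H3K9me3 over 99.0% of its 704 bp and UBF over 645 bp, 683 bp from a Pol II peak. The narrowest 2, of 575 and 524 bp, lay on chromosome 3 from 88265772 and on chromosome 10 from 97958179.

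Pol I met 15 members (0.488%, 0.273 to 0.804), against 899 of the other H3K9ac peaks (3.56%, 3.34 to 3.80), with 3.23% over all H3K9ac peaks. The share was 0.713% (0.195 to 1.82) with Pol II alone, 1.26% with H3K4me3 alone (128 of 10125 peaks) and 5.27% (4.91 to 5.65) with both. In the 3 narrower width bands Pol I met 0.648%, 0.520% and 0.522% of members and 1.03%, 0.789% and 1.44% of the other H3K9ac peaks, again with overlapping intervals. In the open band from 1183 bp it met 0.261% of members (0.0317 to 0.941) and 4.52% of the others (4.23 to 4.84). Weighted to the members' widths the others stood at 1.94% with 4 bands and 1.59% with 10, so that members minus others came to -1.45 and -1.10 percentage points, against -3.07 unweighted. None of the 15 had UBF, 11 had H4 hyperacetylation and 2 had H3K9me3. The overlaps were short, with a median of 176 bp, and the Pol I peaks themselves had a median width of 230 bp. The widest member with Pol I, on chromosome 10 from 96096902 to 96098590, was 1688 bp wide, with 203 bp under Pol I, 690 bp from H3K4me3. On chromosome 8 a member from 36654129 to 36655086 had Pol I over 237 bp, H4 hyperacetylation over 59.7% and H3K9me3 over 64.4% of its width. The narrowest, on chromosome 10 from 107273408 to 107273744, had 190 of its 336 bp under Pol I, no H4 hyperacetylation, and lay 87524 bp from H3K4me3. With counts this small, the depth of the Pol I list, which is unknown, limits what its absence from the other 3058 members can show.

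Most members lay within a few kilobases of an H3K4me3 peak without touching it. The median distance between the nearest edges was 4260 bp (quartiles 994.5 and 15060.5 bp). Within 500 bp lay 535 members (17.4%), within 1000 bp 772 (25.1%), within 5000 bp 1632 (53.1%) and within 50000 bp 2845 (92.6%). Pol II lay farther, at a median of 8449 bp, and H3K4me3 was the nearer of the 2 lists for 2566 members (83.5%). Peaks with Pol II alone lay somewhat nearer to H3K4me3, at a median of 3116 bp, with 27.8% within 1000 bp and 60.2% within 5000 bp. UBF and H3K9me3 peaks lay at medians of 145210 and 19977 bp from members. From H3K9ac peaks with H3K4me3 alone they lay at medians of 141365 and 24219.5 bp. From those with Pol II alone the medians were 112933 and 10825 bp. On both sides, an H3K4me3 peak lay within 5000 bp of 320 members (10.4%), and within 1000 bp of 55 (1.79%).

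**Figure D3:**
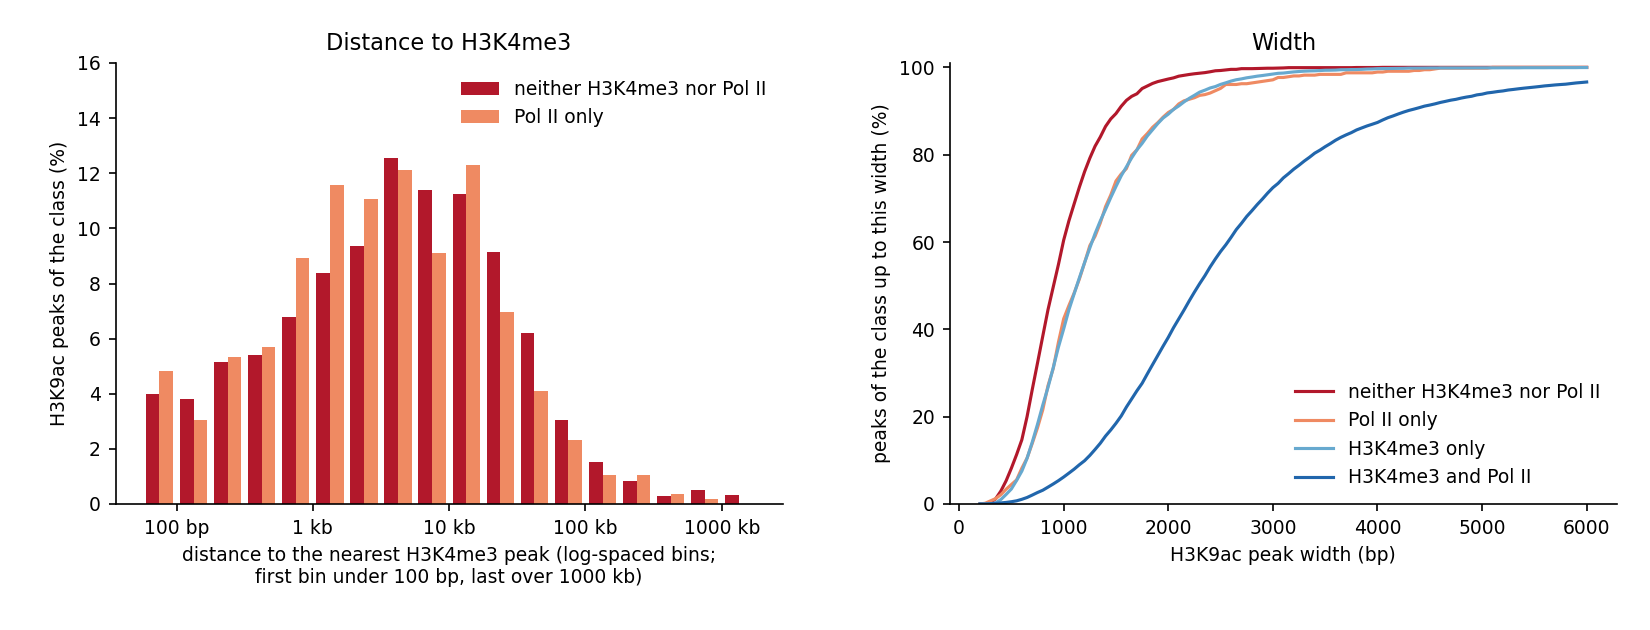
Left, distance from the edge of an H3K9ac peak to the nearest H3K4me3 peak (log-spaced bins, horizontal axis) against the share of the class (%, vertical axis), for members and for peaks with Pol II alone; right, cumulative share of peaks (%) up to each H3K9ac peak width (bp, shown to 6000 bp) for the 4 classes. The distances of both classes spread over several orders of magnitude, with medians of 4260 bp and 3116 bp; the width curve of members lies farthest to the left, with a median of 903 bp against 2289 bp for peaks with H3K4me3 and Pol II.

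The share with H4 hyperacetylation changed little with this distance. The mark was present at 70.8% (66.8 to 74.7) of the members within 500 bp of H3K4me3 and at 73.0% (66.9 to 78.5) of those over 500 to 1000 bp away. It stood at 75.6% (72.6 to 78.4) over 1000 to 5000 bp, 74.3% (71.3 to 77.3) over 5000 to 20000 bp, 73.2% (69.1 to 77.1) over 20000 to 100000 bp and 75.9% (66.7 to 83.6) beyond. All these intervals overlap. Width was greatest in the middle distances, with a median of 979.5 bp over 1000 to 5000 bp, against 845 bp within 500 bp and 702 bp beyond 100000 bp. H3K9me3 stood between 2.66% and 6.33% up to 100000 bp and at 11.1% (5.87 to 18.6) beyond, where 12 of 108 members met it, an interval above that of the band from 20000 to 100000 bp. No UBF peak met the 772 members within 1000 bp of H3K4me3, and 3 of these met Pol I. The intervals for UBF ran from 0 to 0.687% up to 500 bp and from 0 to 1.54% over 500 to 1000 bp. Both include the UBF share over all members, 0.228%. The Pol I share over all members was 0.488%, and the count of 3 is too small to set apart from it. Over 20000 to 100000 bp H3K9me3 met 2.66% of members (1.42 to 4.50) and 24.6% (14.8 to 36.9) of H3K9ac peaks with Pol II alone, and within 500 bp it met 4.67% (3.05 to 6.82) of members and 2.11% (0.256 to 7.40) of those peaks. Whether the classes differ in this trend was not tested.

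The 3071 members on chromosomes or contigs with an H3K4me3 peak shared 2628 nearest H3K4me3 peaks, of which 2291 were nearest to 1 member and 1 was nearest to 10. Their median width was 1749 bp, against 1677 bp for H3K4me3 peaks nearest to no member. Pol II met 55.1% of them (53.1 to 57.0) and 53.0% of the rest (52.3 to 53.6), and UBF met 5.97% (5.10 to 6.95) and 6.46% (6.16 to 6.77), with overlapping intervals. H3K9ac met 90.8% (89.6 to 91.8) of the nearest H3K4me3 peaks and 84.3% (83.8 to 84.7) of the rest. It met 95.6% (93.9 to 97.0) of those within 1000 bp of a member and 92.6% (90.6 to 94.3) over 1000 to 5000 bp. Farther out it met 89.4% (87.0 to 91.5) over 5000 to 20000 bp and 84.7% (81.2 to 87.7) of those over 20000 bp away. The share was thus higher the nearer the member lay, though the intervals of adjacent distance bands overlap.

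The nearest other H3K9ac peak was a median of 2880.5 bp away from members, against 1597 bp for peaks with Pol II alone, 4936 bp for peaks with H3K4me3 alone and 6666 bp for peaks with both. That neighbour was itself a member for 17.5% of members (16.1 to 18.9), 14.4% (11.6 to 17.6) of peaks with Pol II alone, 10.1% (9.50 to 10.7) of peaks with H3K4me3 alone and 10.6% (10.1 to 11.1) of peaks with both. Runs were formed of neighbouring members no more than 12.5 kb apart, a set limit, with no H3K4me3 or Pol II peak between them, on chromosomes 1 to 19 and X. Of the 3058 members there, 568 (18.6%) stood in a run of 2 or more, among them 3 runs of 5 and 8 runs of 4, and 2490 stood alone. H4 hyperacetylation was present at 86.4% (83.4 to 89.2) of members in runs and 71.0% (69.2 to 72.8) of those alone. Their median widths were almost equal, at 907.5 and 903.5 bp. Neighbours in a run lay a median of 1219.5 bp apart, so the same H4 hyperacetylation peak can meet several members. The intervals count members as independent and may be too narrow for runs. H3K9me3 stood at 4.05% in runs and 4.42% alone.

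The 3 longest runs held 5 members each. On chromosome 3 from 79779741 to 79792687 they spanned 12946 bp, were 617 to 1271 bp wide and lay 4077 to 16344 bp from H3K4me3, and 4 of them had H4 hyperacetylation. On chromosome 7 from 117788314 to 117800203 all 5 had H4 hyperacetylation and 1 had H3K9me3, 12707 to 23763 bp from H3K4me3. On chromosome 7 from 138090429 to 138106027 all 5 had H4 hyperacetylation, 2134 to 3979 bp from H3K4me3. A further run of 4, on chromosome 1 from 6269922 to 6279278, had H4 hyperacetylation on 3, and another, on chromosome 1 from 166347375 to 166351009, packed 4 members of 411 to 653 bp into 3634 bp, all with H4 hyperacetylation.

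By fixed windows of 100 kb, 1667 windows held 1 member, and 2 held 9. The first, on chromosome 2 from 113400001 to 113500000, held 9 members of 455 to 1255 bp among its 12 H3K9ac peaks. All 9 had H4 hyperacetylation, none had H3K9me3, UBF or Pol I, and they lay 266 to 5678 bp from H3K4me3. The second, on chromosome 5 from 53800001 to 53900000, held 9 members among 14 H3K9ac peaks, all with H4 hyperacetylation, 423 to 19158 bp from H3K4me3. On chromosome 11 from 86400001 to 86500000, 6 of 7 members had H4 hyperacetylation. The window on chromosome 12 from 80600001 to 80700000 held no other H3K9ac peaks than its 7 members, 5 of them with H4 hyperacetylation, 10151 to 84010 bp from H3K4me3 and at least 206063 bp from Pol II. The fifth, on chromosome 2 from 13300001 to 13400000 and the first by position of 4 windows with 6 members, had 12 H3K9ac peaks, and all 6 members had H4 hyperacetylation. None of the members of these 5 windows met H3K9me3, UBF or Pol I. Over all members the shares were 4.62%, 0.228% and 0.488%. The windows hold too few members to tell this absence from those shares.

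**Figure D4:**
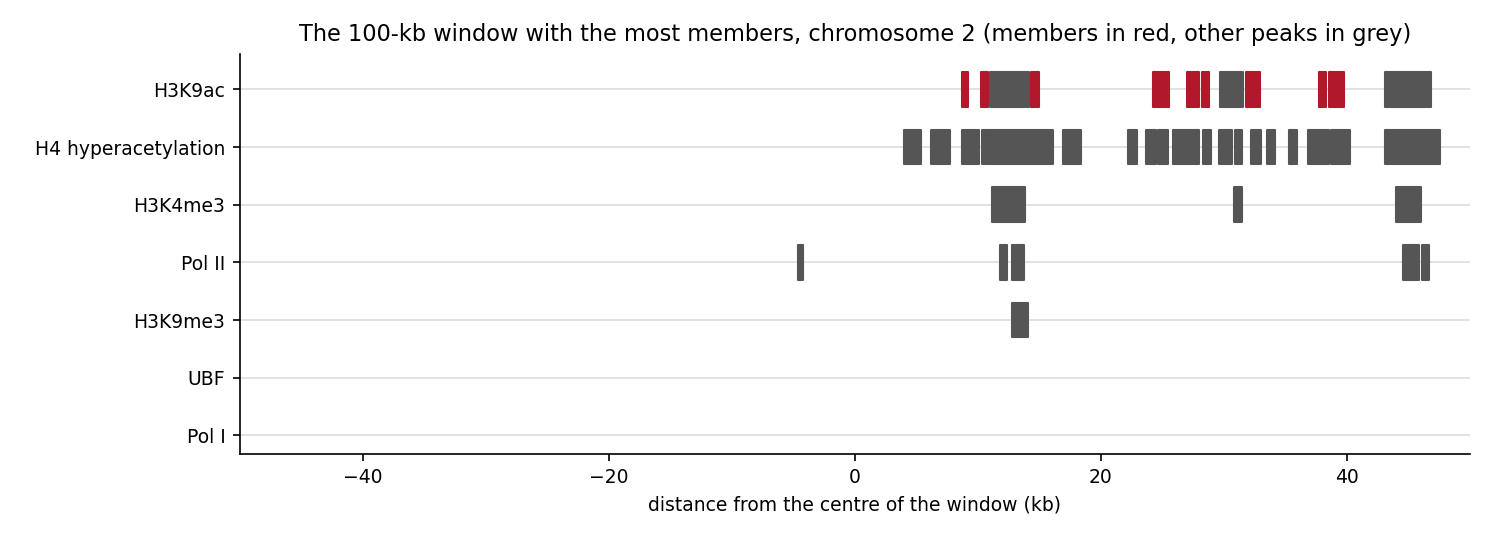
Peaks of the 7 NIH3T3 lists (rows) in the 100-kb window of chromosome 2 that held 9 members, drawn to scale as distance from the window's centre in kb; members are red and all other peaks grey. The 9 members lie among 21 H4 hyperacetylation peaks and between and around 3 H3K4me3 peaks in the right-hand part of the window, and the rows of UBF and Pol I are empty.

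The 10 widest members ran from 2686 to 4004 bp. The widest lay on chromosome 6 from 34697348 to 34701352, with 85.4% of it under H4 hyperacetylation, 2165 bp from H3K4me3 and 535 bp from Pol II. The second, on chromosome 5 from 31864359 to 31868139, was 3780 bp wide, had 92.3% under H4 hyperacetylation and lay 9812 bp from H3K4me3. The third, on chromosome 19 from 38109752 to 38112896, lay 163 bp from H3K4me3. The next 4 lay on chromosome 7 from 137915993 and from 91485012, on chromosome 3 from 107664813 and on chromosome 15 from 101243578, the last at 24006 bp from H3K4me3 and fully under H4 hyperacetylation. The eighth and ninth were the chromosome 4 peak without H4 hyperacetylation and the chromosome 15 peak with H3K9me3 named above, and the tenth lay on chromosome 5 from 32499403 to 32502089, 92 bp from H3K4me3. Of the 10, 9 had H4 hyperacetylation, 1 had H3K9me3 and none had UBF or Pol I. The 5 widest with H4 hyperacetylation as their only other list were the first 5 of these.

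At the other extreme of distance, the member farthest from H3K4me3 lay on chromosome 14 from 112770194 to 112770861, 5716903 bp from the nearest H3K4me3 peak, 5717166 bp from H4 hyperacetylation and 357636 bp from Pol II. A pair on chromosome 15, from 22657134 to 22657954 and from 22663750 to 22664221, lay 1459119 and 1465735 bp from H3K4me3, both fully under H4 hyperacetylation. The others of the farthest 5 lay on chromosome 15 from 29616697 to 29617394, with 96.1% under H4 hyperacetylation, and on chromosome 13 from 27120486 to 27121702, 4181 bp from H4 hyperacetylation.

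The rule cuts through a continuum of distance. Just inside it, 140 members lay within 100 bp of an H3K4me3 or Pol II peak, with a median width of 853.5 bp and H4 hyperacetylation at 70.0%. Just outside it, 61 other H3K9ac peaks overlapped H3K4me3 and Pol II by 100 bp or less in all, with a median width of 817 bp and H4 hyperacetylation at 62.3%. The nearest members lay 0 or 1 bp away. They were on chromosome 12 from 111935846 to 111936584, on chromosome 6 from 127818437 to 127820125, on chromosome 10 from 80285305 to 80285990 and from 80883579 to 80885954, and on chromosome 11 from 6342761 to 6343463. The smallest overlaps outside were 3 to 5 bp, on chromosome 2 from 165749467 to 165750245, on chromosome 5 from 53847693 to 53848634 and from 119013344 to 119014259, on chromosome 10 from 79305922 to 79306898 and on chromosome 11 from 83377558 to 83378407, the last with Pol II and the others with H3K4me3. The second of these lies in the chromosome 5 window with 9 members.

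Members were found on each of chromosomes 1 to 19 and X. They made up between 9.26% (7.47 to 11.3) of the H3K9ac peaks of chromosome 19 and 12.4% (10.9 to 13.9) of those of chromosome 5 among the autosomes. On the X chromosome the share was lower, with 40 members among 572 H3K9ac peaks (6.99%, 5.04 to 9.40), against 10.95% (10.6 to 11.3) over chromosomes 1 to 19. Its members had a median width of 683.5 bp and lay a median of 11166 bp from H3K4me3. H4 hyperacetylation was present at 60.0% of them (43.3 to 75.1), and between 66.4% (57.9 to 74.3) on chromosome 8 and 81.1% (72.4 to 88.1) on chromosome 13 among the autosomes. H3K9me3 ranged from 1.06% (0.128 to 3.77) of members on chromosome 7 to 9.20% (4.05 to 17.3) on chromosome 16.

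**Figure D5:**
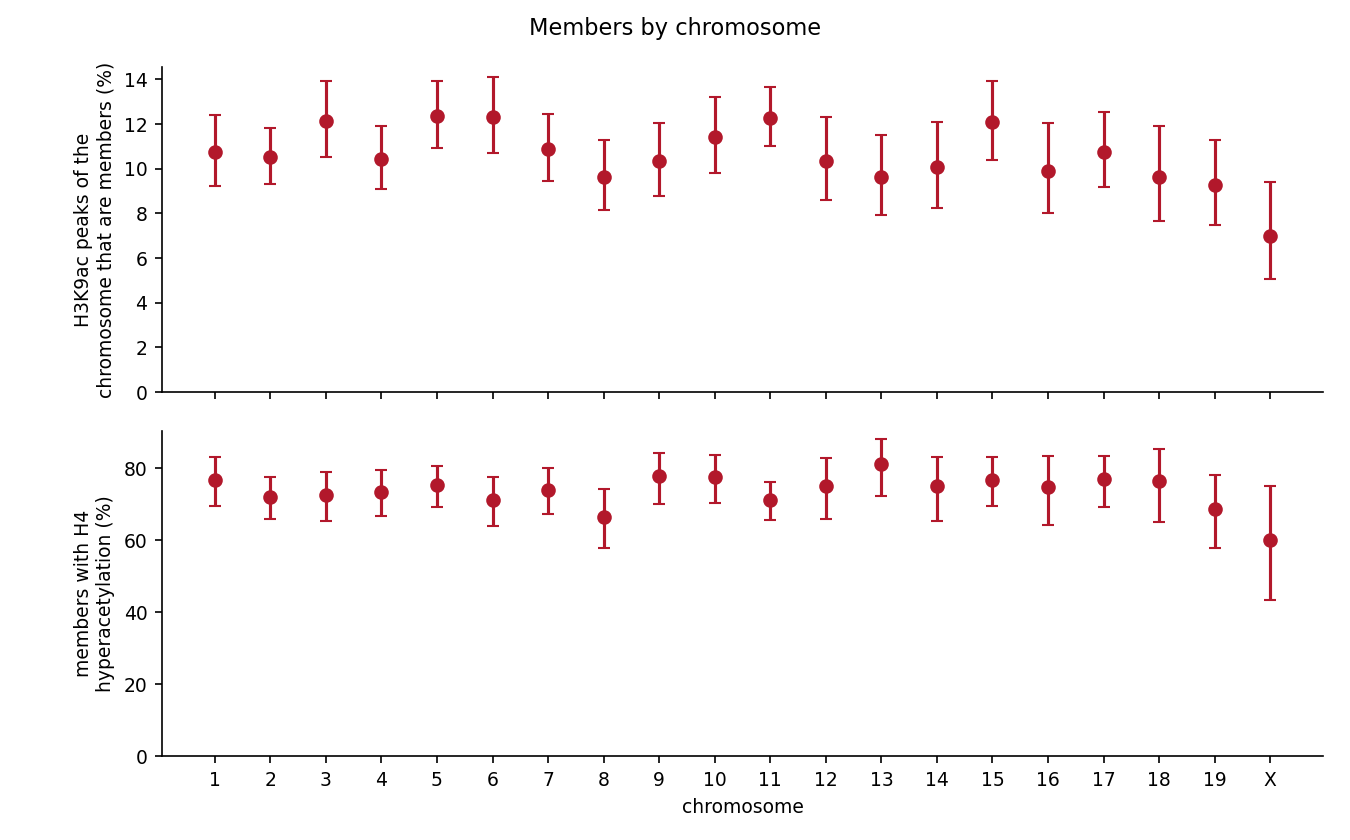
Top, share of each chromosome's H3K9ac peaks that were members (%); bottom, share of those members that met H4 hyperacetylation (%), with exact 95% binomial intervals over peaks as whiskers. The X chromosome stands lowest in both panels, at 6.99% and 60.0%, with a wide interval in the lower panel, where it rests on 40 members.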

How the data were processed

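The authors deposited, for each antibody, the positions (chromosome, start and end, in bp) of called peaks, other values such as scores or counts being absent from the columns. Per the submitters' processing notes the tools included Picard, BWA and CASAVA 1.8.2, with mm9 as the mouse build. How peaks were called, at which threshold, and whether reads were pooled is not stated in the sources used here. Positions are printed as in the files, whose counting origin is not stated. No mm9 genome or annotation was used, so peaks carry no gene names or sequences.

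Peaks met if they shared at least 1 bp. Distances run between nearest edges, and width is end minus start. Shares and intervals were computed with Python 3.11.15, numpy 2.4.6, pandas 2.3.3 and scipy 1.17.1. The overlap code was tested on simulated data: all 3000 planted overlaps and distances were recovered exactly. Width bands were cut at the quartiles of member width. Peaks named singly were the widest members overall and with each other list, the farthest from and nearest to the rule's lists, the fullest windows and the longest runs, ties going by position. The 2 narrowest members with UBF and the narrowest with Pol I fall outside this rule and were chosen after their values were seen. The members and these rules were chosen with earlier results of these data known. The 3 human lists were not used.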

Additional observations from a re-analysis of the deposited data

How the results depend on the processing

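Of 63 values recomputed (7 results under 9 alternatives), 30 stayed within the interval of the reported value, or within 1.5 times the number of members, and 33 moved. Members stayed below the other H3K9ac peaks for all 4 marks in all 9 alternatives, though for Pol I with 50% of the H3K9ac peak covered the difference was -0.000357 percentage points (1 of 3578 members and 7 of 24730 others). The number of members moved to 1278 at least 5000 bp away from H3K4me3 and Pol II, to 246 in the wider part of the H3K9ac list (at or above its median width) and to 13198 with Pol II alone in the rule. With 50% covered the median width was 952 bp, Pol I 0.0279%, H3K9me3 3.58% and the median distance to H3K4me3 3473.5 bp. With peak centres within 1000 bp these were 933.5 bp, 0.844%, 3.89% and 2634 bp, with H4 hyperacetylation at 66.4%. With every peak set to 1000 bp in width, and so to a median of 1000 bp, H4 hyperacetylation was 66.4%, Pol I 0.844%, H3K9me3 3.89% and the distance 3403 bp. Members at least 1000 bp away had a median distance of 8282 bp, and those at least 5000 bp away 17105.5 bp and a width of 870 bp, as those alternatives remove the near peaks. The wider part had a width of 1814 bp, H4 hyperacetylation 86.2%, UBF 0 of 246, Pol I 0.813%, H3K9me3 7.72% and a distance of 3450.5 bp. With H3K4me3 alone in the rule the width was 928 bp and H3K9me3 5.70%. With Pol II alone the width was 1060 bp, H4 hyperacetylation 81.8%, Pol I 1.08%, H3K9me3 5.56% and the distance 0 bp, since peaks over H3K4me3 then count. Except where the construction is named, the cause was not tested. Without replicates no library could be left out. No paired analysis was possible because each antibody has 1 list. The depth is unknown.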

Other observations

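Of the 15 members on contigs or chromosome Y, 11 met H4 hyperacetylation and 9 met H3K9me3. H3K9me3 met 133 of the 3058 members on chromosomes 1 to 19 and X (4.35%, 3.65 to 5.13).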
